A study of Mus musculus with 4 samples.

Results

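The numbered Zfp genes of mouse, most of which encode zinc finger proteins, were examined for sites where Elavl proteins touched their RNA. The members were the protein-coding genes whose symbol is Zfp followed by a number alone, without Zfp36, and whose span overlapped at least 1 peak of either deposited list. This gave 194 of 366 such genes in the reference, 53.0% (Wilson 95% interval 47.9 to 58.1), beside 42.1% of all 21900 coding genes. The members were selected on the presence of a peak in either list, so these shares are a description. The label held as far as the symbols go, but protein sequences were not used, so the number and type of zinc fingers were not checked.

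Elavl proteins are RNA-binding proteins that prefer U-rich and AU-rich RNA, in introns and in 3′ untranslated regions, where they affect splicing, stability and translation. Zinc finger proteins of the C2H2 type are the largest family of mammalian transcription factors. Many carry a KRAB domain, which recruits the co-repressor Trim28 and silences transposable elements, and the genes of that type often lie in tandem clusters. Others are conserved single genes with roles in development, RNA metabolism or ubiquitin signalling.

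HITS-CLIP, in which ultraviolet light crosslinks a protein to RNA before immunoprecipitation and sequencing, was done on mouse cortex and on N2A cells, a mouse neuroblastoma line. Per the labels there were 3 cortex samples, with a degenerate 5′ linker 25 nt long, and 1 N2A sample, whose linker was 7 nt long. No genotype or treatment is named for either group, and the name of the cortex list carries the words for 2 months, which the labels do not explain. Each group was represented by 1 list, with 97775 peaks for cortex and 7335 for N2A, each peak 50 to 51 nt wide with a p-value and no read count. Depth is therefore unknown, values per sample are lacking, no test over samples was possible, and differences between the lists were not tested. Tissue, linker and list size cannot be told apart as sources of any difference. All intervals are Wilson 95% intervals that cover counting error alone, and genes and peaks are not replicates. Of 7 neuronal markers, 7 had cortex peaks and 2 had N2A peaks. Oligodendrocyte markers had cortex peaks in 3 of 3 and N2A peaks in 0 of 3, and neuroblastoma markers had them in 2 of 5 and 4 of 5. Astrocyte markers had cortex peaks in 2 of 3 and microglia markers in 1 of 3, with N2A peaks in 0 of 3 of each. Gfap of the first list, Cx3cr1 and Csf1r of the second, and Th, a neuroblastoma marker, had 0 peaks in both.

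The reference tables held the letters of 1 member peak, the cortex peak of Zfp740 that falls in the promoter window of the overlapping gene Csad, and it is shown as the only member peak whose letters could be read. Its first 30 bases are printed on the plus strand of Zfp740 at chr15:102205219-102205248 (GRCm38.p6, RefSeq), counting coordinates from 1, with the run of 4 T in capitals.
Zfp740: ttcccaacaggaaTTTTattgagctcctgt
T made up 11 of these 30 bases (36.7%). A run of TTTT was found in 9.92% of the 328510 consecutive windows of 30 bases cut from all promoters of the table, read on the strand of each promoter. The peak lay 1.71 kb from the start of the Zfp740 span and was among the weaker ones, with a deposited p of 0.0596. The letters are a description and mark no binding site.

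Cortex peaks were found in 193 of the 194 members. Since a peak in either list made a gene a member, the like share is that of coding genes with any peak, 97.1%, and nothing is read from it (all coding genes had cortex peaks in 40.8%). The members held 1002 cortex peaks, 1.02% of the list, and 78 N2A peaks, 1.06% of that list. The ratio of cortex to N2A peaks was 12.8 (exact 95% interval 10.2 to 16.4) in the members and 13.3 over all deposited peaks. The Zfp genes thus took about the same share of each list. The numbers of genes did not follow that pattern. N2A peaks were found in 38 members, 19.6% (14.6 to 25.7), against 34.6% of all coding genes with a peak in either list. Over all 366 numbered Zfp genes the share was 10.4% (7.66 to 13.9), against 14.5% of all coding genes. Peaks in both lists were found in 37 members, 19.1% (14.2 to 25.2), against 31.6% of coding genes with a peak. Cortex peaks alone were found in 156 members and N2A peaks alone in 1, Zfp217. In the stronger 50% of each list by p, 140 members kept a peak, 21 had N2A peaks and 19 had peaks in both. The like shares of all coding genes were not computed for these shorter lists, so nothing is read from these counts.

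Most members carried few cortex peaks. Exactly 1 was found in 56 (28.9% of members), 2 to 4 in 74, 5 to 9 in 35 and at least 10 in 28. Of other coding genes with a cortex peak, 24.0% had exactly 1. The median over members with a cortex peak was 3, with quartiles of 1 and 6, against 4 with quartiles of 2 and 10 in other coding genes. Member spans were shorter, with a median of 21.3 kb against 36.1 kb. Per 10 kb of span the medians were close, at 1.26 cortex peaks in members and 1.24 in the others. The N2A medians per 10 kb were 0.525 and 0.482. Across members, span and cortex peak count had a Spearman correlation of 0.419 (n = 194), as a description. The smallest cortex p of a member had a median of 4.44e-04, against 2.41e-07 in other coding genes with a cortex peak. A smallest value depends on the number of peaks per gene, which was larger in the other genes. Counted per peak, the median deposited cortex p was 0.0117 in members and 0.00935 in the others.

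**Figure D1:**
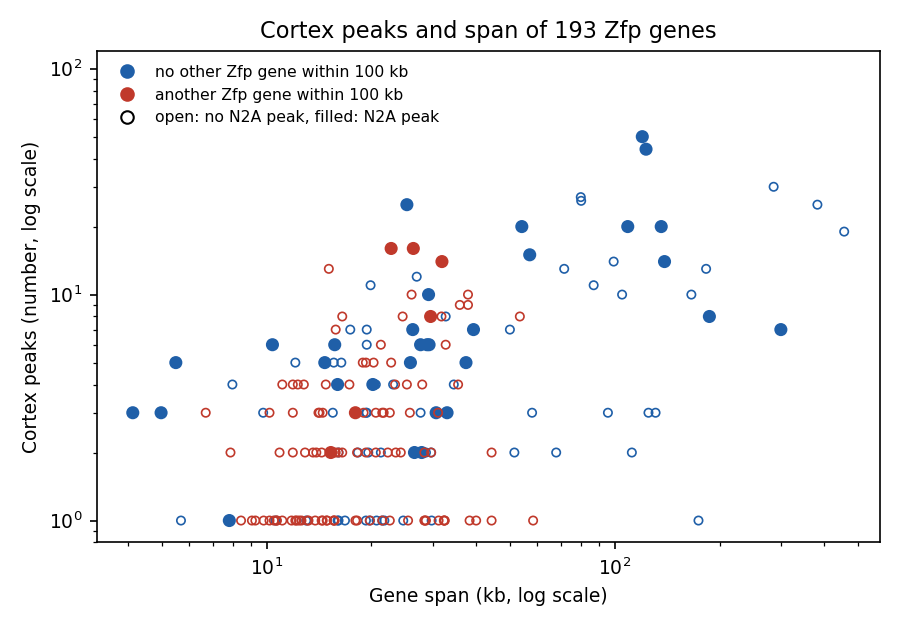
Each point is 1 of the 193 Zfp genes with a cortex peak, placed by gene span in kb (log scale) and number of cortex peaks (log scale). Colour shows whether another numbered Zfp gene lies within 100 kb, and filled points have at least 1 N2A peak. Zfp638 and Zfp148 stand highest with 50 and 44 peaks, and most filled points are genes without close Zfp neighbours.

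The 10 members with the most cortex peaks held 28.5% of the family's total. Zfp638, a nuclear protein that takes part in silencing of unintegrated retroviral DNA, led with 50 cortex peaks over a 120 kb span on chromosome 6 (83867068 to 83986871). Only 6 of them lay within 5 kb of the gene end, and the strongest, with a p of 6.11e-15, lay 48.0 kb from it. Zfp148, a transcription factor of GC-rich promoters, had 44 in a 123 kb span, and its strongest, at chr16:33498003-33498053 with a p of 1.65e-91, lay 5.85 kb from the end. In Zfp148, 8 of the 44 lay within 5 kb of the end, and the median distance was 71.7 kb. Both genes had 2 N2A peaks.

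Distances to the end were long in the next genes too, as were their spans. The spans were 286 kb for Zfp521, 79.9 kb for Zfp292 and 80.1 kb for Zfp644. Zfp521, a regulator of progenitor cell fate, had 30 cortex peaks with a median distance of 114 kb to the gene end. Zfp292, a large transcription factor linked to intellectual disability, had 27 with a median of 37.1 kb, and Zfp644, a partner of the histone methyltransferases G9a and GLP, had 26 with 42.0 kb. For Zfp407, 25 peaks were listed and 0 lay within 5 kb of the end of the 382 kb span. None of these 4 genes had an N2A peak.

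Zfp207, a spindle assembly factor also called BuGZ, had 25 cortex peaks in only 25.3 kb, the highest density of the family at 9.89 per 10 kb. Zfp451, a SUMO ligase, had 20, the strongest at 38.8 kb from the end with a p of 3.64e-28. Zfp609, which works with the cohesin loader Nipbl, and Zfp532 had 20 each. These 4 genes had N2A peaks as well, 3 in Zfp451 and 1 in each of the others. Among other neural regulators, Zfp536, a repressor of neuronal differentiation, had 19 cortex peaks at a median of 217 kb from the end of its 456 kb span and 0 N2A peaks.

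The strongest single cortex site of the family was in a gene with few peaks. Zfp365, also called DBZ, a partner of the schizophrenia-linked protein Disc1, had 2 cortex peaks, and that at chr10:67886907-67886957 on the minus strand had a p of 3.11e-241. It lay 0.802 kb from the gene end, and the other cortex peak lay 4.55 kb from it with a p of 1.82e-05. N2A listed 7 peaks there, all within 2.35 kb of the end, and the strongest, with a p of 6.99e-54, started 1 nt from the strong cortex peak. The remaining 6 N2A peaks of Zfp365 overlapped no cortex peak. The strongest site was therefore shared, while the sites around it were listed in N2A only.

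Next by cortex p after Zfp365 and Zfp148 came Zfp106, an RNA-binding protein needed by motor neurons, with a best p of 2.11e-89 at 2.87 kb from the end. Zfp664 followed with a best p of 2.56e-88 at 0.641 kb. Zfp871 had a best p of 5.87e-67 at 8.02 kb, and Zfp91, an E3 ubiquitin ligase, one of 2.13e-63 at 1.85 kb. Zfp800 (9.95e-53 at 3.15 kb), Zfp932 (3.42e-40 at 6.57 kb) and Zfp462 (5.49e-32 at 0.314 kb) completed the 10 together with Zfp451. Of these 10 genes, 6 had their strongest site within 5 kb of the gene end and 9 had N2A peaks, Zfp932 being the exception. The like shares of other coding genes with such small cortex p-values were not computed, so nothing is read from these counts.

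The members with the most N2A peaks mostly had more cortex peaks than the median member. Over the 194 members the Spearman correlation of the 2 counts was 0.373, a description over genes that share the same lists. Span had a correlation of 0.419 with the cortex count and 0.182 with the N2A count, and its part in this was not tested. Of the 10 members with the most N2A peaks, 8 had more than the median of 3 cortex peaks, and Zfp365 and Zfp217 did not. Zfp871 led with 8 N2A peaks beside 16 in cortex, and 4 of the 8 overlapped cortex peaks. After Zfp365 came Zfp664, Zfp106 and Zfp26 with 4 each, of which 2, 1 and 0 overlapped a cortex peak. Zfp217, Zfp655, Zfp451, Zfp462 and Zfp326 had 3 each. Exactly 1 N2A peak was found in 20 of the 38 members, 52.6%, close to the 50.1% of other coding genes with an N2A peak. Zfp217, a repressor amplified in breast cancer, had its 3 N2A peaks at 1.21, 1.45 and 1.70 kb from the gene end, the strongest with a p of 3.14e-06, and 0 cortex peaks.

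**Figure D2:**
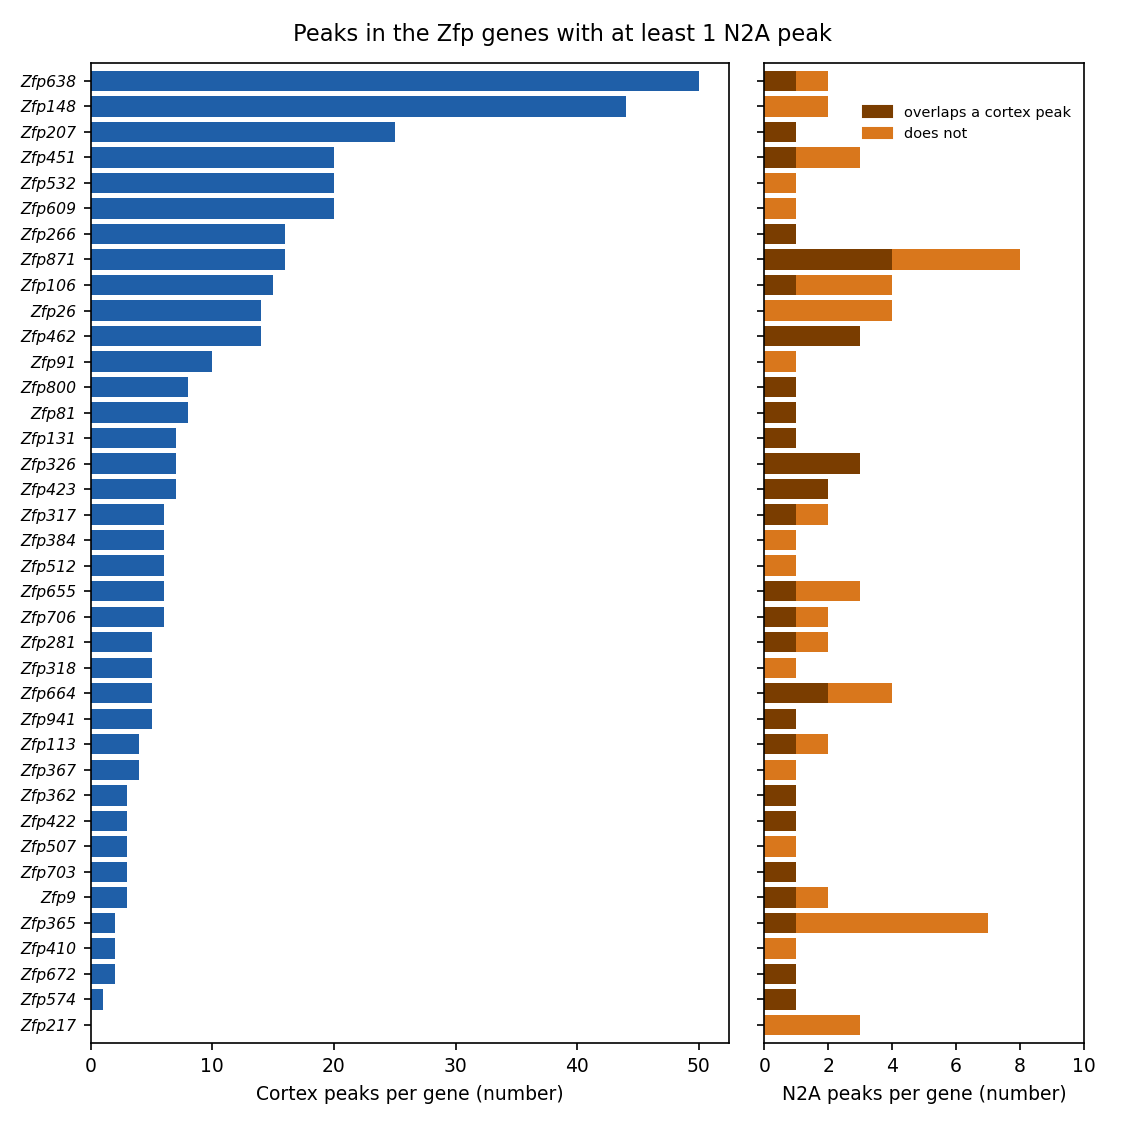
Bars give the number of cortex peaks (left) and N2A peaks (right) in each of the 38 Zfp genes with at least 1 N2A peak, ordered by cortex count. The dark part of an N2A bar counts peaks that overlap a cortex peak. Zfp871 and Zfp365 have the most N2A peaks, 8 and 7, while Zfp638 and Zfp148 have the most cortex peaks and 2 N2A peaks each.

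Most N2A peaks lay near the ends of Zfp genes, and cortex peaks lay along their whole length. Distance to the end was measured on the strand of each peak, and a peak in 2 members counted for both, which gave 1007 cortex entries. Within 5 kb of the gene end lay 31.7% (28.9 to 34.6) of cortex entries and 78.2% (67.8 to 85.9) of N2A peaks. In other coding genes the shares were 19.8% and 78.3% (77.3 to 79.3). The median distance was 12.8 kb in cortex and 1.64 kb in N2A, against 60.8 and 1.51 kb in other coding genes. The direction of the cortex difference was not the same in long and short spans. In genes with spans over the members' median, 23.4% (20.5 to 26.6) of the members' cortex entries lay within 5 kb of the end, against 15.7% in other coding genes. At or under that median the order was the opposite, with 54.3% (48.3 to 60.1) in members and 71.8% (70.7 to 72.8) in others. For N2A the shares over the median were 73.8% and 74.1%. This split was made after values had been seen, did not match spans within each part and was not tested. The longest span was 456 kb in members and 2390 kb in other coding genes with a peak. Counted by gene, at least 1 cortex peak lay within 5 kb of the end in 126 of 193 members (65.3%), against 77.0% of all coding genes with a cortex peak. For N2A the count was 30 of 38 (78.9%), against 84.3%.

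The span was cut into 5 equal parts, and cortex entries of members were divided 15.8%, 16.9%, 15.9%, 19.7% and 31.7% from start to end. Other coding genes had 21.8% in the first part and 27.9% in the last. For N2A the last part held 74.4% (63.7 to 82.7) of member peaks and the first 1.28%, against 78.6% and 6.35% in other coding genes. Of cortex entries, 12.3% (10.4 to 14.5) lay within 5 kb of the gene start, against 6.25% in others. With the same split by span the shares near the start were 7.05% and 4.08% over the median, and 26.8% (21.8 to 32.4) and 34.0% at or under it. In the compact genes the start and the end windows can cover the same peak. Zfp281, a transcription factor of pluripotent cells, has a span of 5.49 kb. All 5 of its cortex peaks and both N2A peaks lay within 5 kb of the end. The small gene Zfp703, a co-repressor of the NLZ family, had 3 and 1 in a span of 4.13 kb. Spans this short leave little or no room outside the 5 kb window, so nothing is read from these counts.

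**Figure D3:**
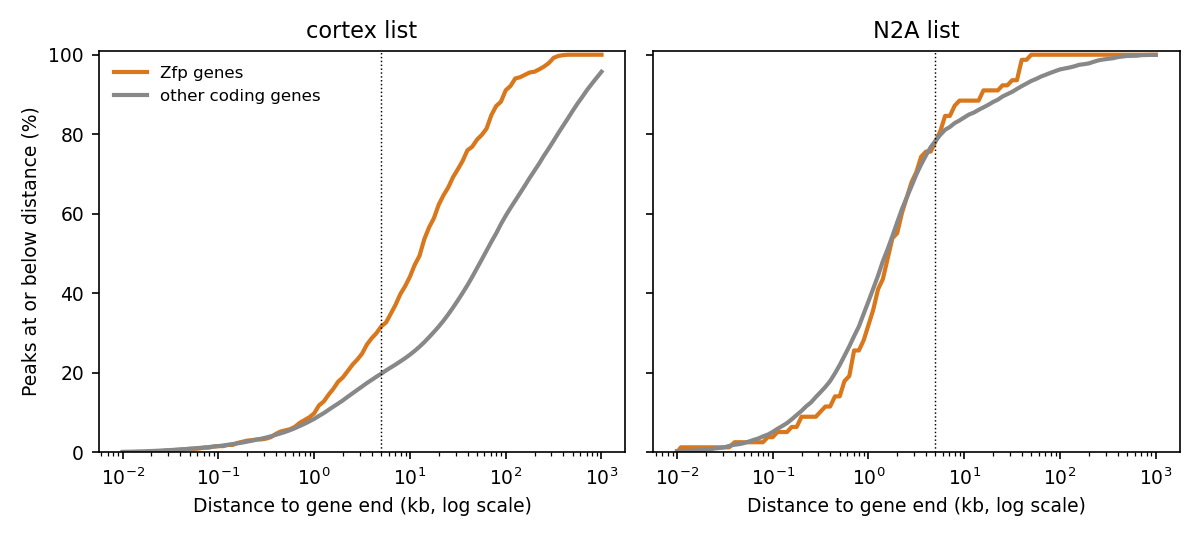
Curves give the percentage of peaks at or below each distance from the gene end in kb (log scale) for Zfp genes and other coding genes, in the cortex list (left) and the N2A list (right), with a dotted line at 5 kb. In cortex the Zfp curve reaches 31.7% at 5 kb and the other curve 19.8%, while in N2A the curves reach 78.2% and 78.3%.

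The 2 lists shared sites in these genes. Of the 78 N2A peaks, 35 overlapped a cortex peak by at least 1 nt on the same strand, 44.9% (34.3 to 55.9), against 42.2% (41.0 to 43.4) in other coding genes. Starts of the 2 peaks lay within 10 nt of each other at 20 of these 35 sites, and the median offset was 8 nt. From the cortex side, 34 of 1002 peaks overlapped an N2A peak, 3.39% against 3.15% in others. The sites came from 26 of the 38 members with N2A peaks, 68.4% (52.5 to 80.9), against 64.7% of all coding genes with N2A peaks. All of these shares lay near those of other genes.

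Shared sites of the members had the smaller p-values in both lists. Cortex peaks of members that overlapped an N2A peak had a median p of 1.31e-06, against 0.0129 for those that did not. N2A peaks that overlapped a cortex peak had a median p of 0.00745, against 0.0220. These medians are descriptions within each list, were not computed for other coding genes and were not tested.

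Every N2A peak overlapped a cortex peak in 14 members, of which Zfp326, Zfp462 and Zfp423 had more than 1. In Zfp326, a subunit of the DBIRD complex that couples splicing and transcription elongation, all 3 N2A peaks overlapped the 3 cortex peaks nearest the end, and that at chr5:105915109-105915159 had the same start in both lists. Zfp462, a chromatin regulator linked to a neurodevelopmental syndrome, had 3 of 3, with the strongest cortex peak (5.49e-32) starting 9 nt before an N2A peak. Zfp423, a partner of Ebf factors in cerebellar and fat development, had 2 of 2, but both overlapped the same cortex peak, by 10 and 4 nt. Not among the 14, Zfp664 had 2 of 4, and its N2A peak with the smallest p, 1.57e-44, overlapped the strongest cortex peak, at chr5:124887939-124887989, by 43 nt.

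Single N2A peaks that overlapped a cortex peak were also found in Zfp574, Zfp422, Zfp703, Zfp362, Zfp131, Zfp266, Zfp941, Zfp81, Zfp800, Zfp672 and Zfp207, where it was the only N2A peak. In Zfp574 the only peak of each list overlapped the other, by 44 nt. In Zfp106, Zfp113, Zfp281, Zfp317, Zfp451, Zfp638, Zfp655, Zfp706 and Zfp9, 1 N2A peak overlapped a cortex peak and at least 1 other did not. The overlap in Zfp706 was 1 nt. Shared sites more than 5 kb from the gene end were few. They lay in Zfp638 (49.96 kb from the end), Zfp451 (36.9 kb), Zfp800 (30.2 kb), Zfp672 (15.1 kb) and Zfp207 (14.4 kb). In Zfp871, 2 such sites lay at 5.63 and 8.01 kb. The Zfp672 site was near the start of the gene's 15.3 kb span.

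**Figure D4:**
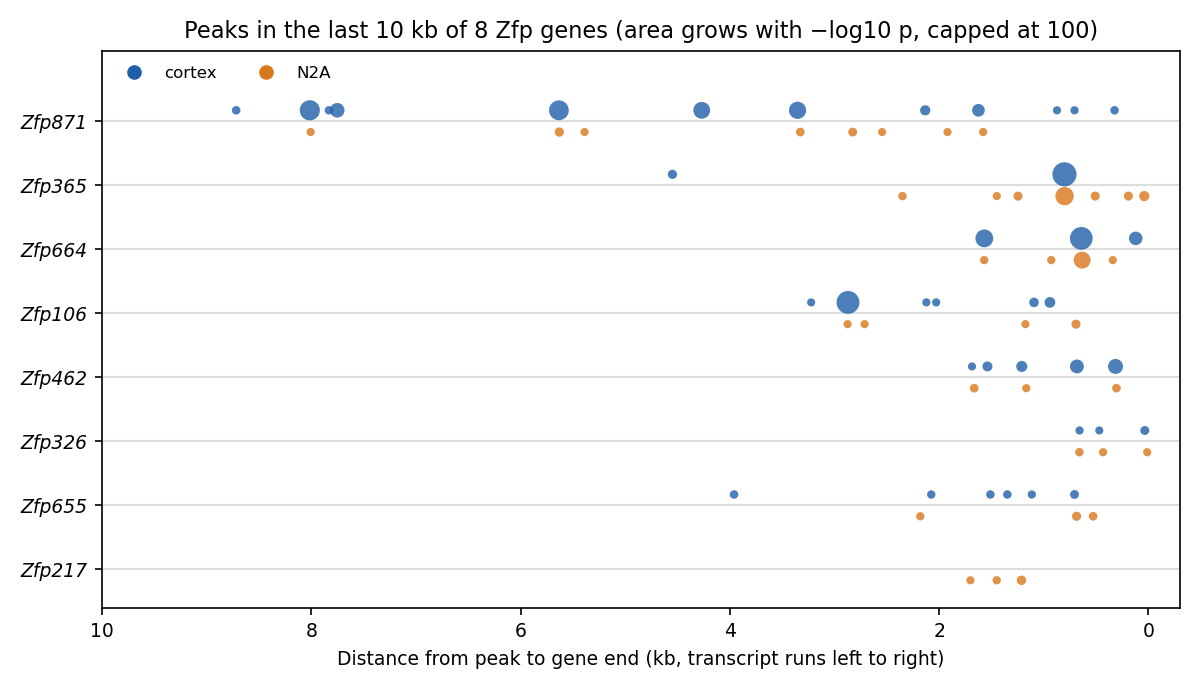
Peaks in the last 10 kb of 8 Zfp genes are drawn by distance to the gene end in kb, cortex above and N2A below each line. A smaller p gives a larger area up to a cap, by the same formula in both lists, and areas are to be compared within a list only. In Zfp365 and Zfp664 the largest N2A point sits under the largest cortex point, and Zfp217 has N2A points alone.

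N2A peaks were listed in a smaller share of the members that have other Zfp genes nearby. Of the 366 numbered Zfp genes, 212 had another within 100 kb and 154 did not. Members made up 49.5% (42.9 to 56.2) of the first and 57.8% (49.9 to 65.3) of the second. Among members without such a neighbour, 32 of 89 had N2A peaks, 36.0% (26.8 to 46.3), close to the 34.6% of all coding genes with a peak. Among members with a neighbour the count was 6 of 105, 5.71% (2.64 to 11.9). These 6 were Zfp26, Zfp266, Zfp672, Zfp81, Zfp871 and Zfp9. Over all numbered Zfp genes, with or without a peak, the counts were 32 of 154 without a neighbour and 6 of 212 with one. The share of all coding genes with an N2A peak was 14.5%. The split was made after values had been seen and was not tested.

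Other values moved with the neighbours. Members with neighbours had shorter spans, a median of 18.2 against 27.7 kb, and fewer cortex peaks, a median of 2 against 4. With spans at or under the members' median, N2A peaks were found in 9 of 35 members alone and 2 of 62 with neighbours. Over that median the counts were 23 of 54 and 4 of 43. With at least 3 cortex peaks they were 28 of 62 (45.2%) and 5 of 44 (11.4%), and with 1 or 2 cortex peaks 3 of 26 and 1 of 61. With N2A peaks of p under 0.05 alone they were 26 of 89 (29.2%) and 4 of 105 (3.81%). How reads that match several similar genes were treated is not given in the sources used here, so counts in tandem genes are uncertain, and the part of such reads was not tested.

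**Figure D5:**
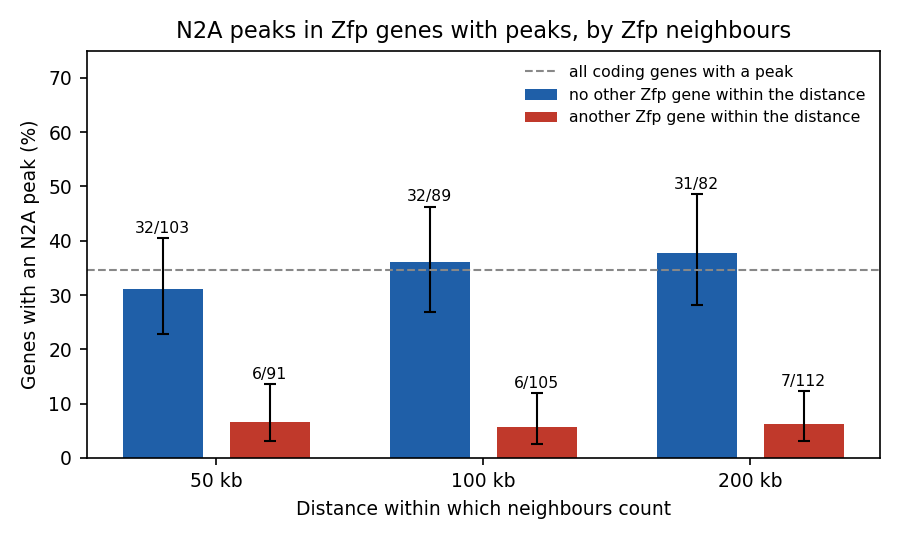
Bars give the percentage of Zfp genes with peaks that had an N2A peak, split by whether another numbered Zfp gene lay within 50, 100 or 200 kb, with Wilson 95% intervals and the counts above. At 100 kb the bars stand at 36.0% and 5.71%, and the dashed line marks the 34.6% of all coding genes with a peak.

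By chromosome, the largest number of Zfp genes lay on chromosome 7, where 46 of 89 were members and 3 had N2A peaks. Chromosome 17 had 25 of 41 with 3, and chromosome 13 had 12 of 32 with 2. Chromosomes 5 and 6 had 11 of 16 and 12 of 17 members, and 5 on each had N2A peaks. On chromosome 14, 0 of 5 Zfp genes had a peak. Every other chromosome with numbered Zfp genes held at least 1 member.

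Of 27 Zfp genes listed for a known role, 22 had a peak. Cortex peaks were found in 21 and N2A peaks in 15, and the list was written with results known, so nothing is read from these counts. Zfp445, a KRAB protein that maintains imprints, had 10 peaks in cortex, the best with a p of 3.05e-10, and 0 in N2A. Zfp57, which has the same role, had no peak within its span, nor had Zfp42 (Rex1, a pluripotency marker), Zfp503, Zfp598, a ligase at collided ribosomes, or Zfp622, a factor of 60S subunit maturation. Zfp711, an X-linked intellectual disability gene, had 4 cortex peaks. Zfp410, the activator of Chd4, had 2 cortex peaks and 1 in N2A. Zfp335, a microcephaly gene, had 1 cortex peak.

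The strand of the gene was known from the promoter table for 159 members, and 757 of 769 cortex entries (98.4%) and 65 of 65 N2A peaks lay on it. In other coding genes with a peak the shares were close, at 98.2% in cortex and 97.1% in N2A. The exceptions were in Zfp174, Zfp235, Zfp428, Zfp687, Zfp710, Zfp809 and Zfp950. All 4 peaks in the Zfp174 span also lay in Zfp597, on whose strand they were. The only peak of Zfp809, which silences murine leukaemia virus, was on the opposite strand and also lay in Zfp599. Both peaks of Zfp687 lay in Pi4kb. Peaks on both strands were found in Zfp235, Zfp397, Zfp710 and Zfp950, and all 4 peaks of Zfp397 also lay in Zscan30. In all, 20 member spans overlapped another coding gene, and in 8 of them every peak lay in the overlap.

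At the edge of the rule, 55 members had a single peak in all, and 23 of 193 had no cortex peak with a p under 0.05. Of the 172 Zfp genes without a peak, 10 had one within 1 kb outside the span and 27 within 5 kb, and the median distance was 30.6 kb. The nearest were Zfp867 at 0.0250 kb, Zfp513 at 0.0700 kb and Zfp57 at 0.204 kb. The peaks near Zfp867 and Zfp57 lay on the strand opposite to the gene, and that near Zfp513 on its strand. Of the 10 within 1 kb, 8 were near genes of known strand, and 5 of these 8 lay on it. Spans of the 172 genes were shorter than those of members, with a median of 14.6 kb.

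Genes of the machinery that KRAB zinc finger proteins recruit carried peaks in most cases. Cortex peaks were found in 18 of 20 co-repressor genes and N2A peaks in 11, against 40.8% and 14.5% of all coding genes. This list was written with earlier results of these data known, so nothing is read from these counts. Trim28, the co-repressor that binds KRAB domains, had 2 cortex peaks (best p of 2.44e-05) and 0 in N2A. Setdb1, its histone methyltransferase, had 11 and 0, and Atf7ip, the partner of Setdb1, had 33 and 0. Cbx5, the heterochromatin protein HP1 alpha, had 15 cortex peaks (best p of 7.86e-139) and 20 N2A peaks, of which 4 overlapped cortex peaks. Uhrf1, which maintains DNA methylation, had 0 cortex peaks and 4 in N2A, and Dnmt3b had 0 in both. Among other zinc finger series, cortex and N2A peaks were found in 24 and 7 of 35 Zbtb genes, 10 and 5 of 17 Klf genes, 7 and 1 of 11 Zkscan genes and 5 and 0 of 11 Zscan genes.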

How the data were processed

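The data were the 2 deposited peak lists, 1 for the 3 cortex samples and 1 for the N2A sample. Each peak carries a p-value that the authors deposited, per the file headers. Neither the peak caller nor its filters, adjustment or pooling is named in the sources used here. Novoalign and hg19 are named by the submitters' processing notes, but chromosome names and gene overlaps are those of mouse, and coordinates were read as GRCm38 and are printed as deposited. Genes were matched by symbol to RefSeq GRCm38.p6, which gives spans without exons. A peak belonged to every coding gene whose span it touched by at least 1 nt, on either strand. Gene strand came from the promoter table. Counts, Wilson intervals and overlaps were computed with Python 3.11.15, pandas 2.3.3 and scipy 1.17.1 and tested on simulated peaks. Depth is unknown. No test over samples, no motif search in peaks and no count of zinc fingers was made, since these need sample values, a genome or proteins, which were not used here. Alternatives changed the p-value threshold, peak assignment, strand, end window and overlap.

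Named genes were the 10 members with the most cortex peaks, the 10 with the smallest cortex p, the 10 with the most N2A peaks, those with N2A peaks alone, with overlapping peaks or with peaks on both strands, and a list of known role. Members, gene lists and rules were chosen with earlier results of these data known. Zfp740, the genes against the promoter strand and the splits by Zfp neighbour and by span were chosen after their values were seen.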

Additional observations from a re-analysis of the deposited data

How the results depend on the processing

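Of 51 alternative values for 9 results, 40 stayed within 1.5 times the main count or inside the main Wilson interval, and 11 moved outside. With the stronger 50% of each list by p, N2A peaks were found in 21 members and peaks in both lists in 19, the peaks numbered 476 in cortex and 29 in N2A, and the shares within 5 kb of the gene end were 37.8% and 86.2%. With a window of 2 kb the shares near the end were 19.0% in cortex and 55.1% in N2A, and with 10 kb they were 44.2% and 88.5%. A wider or narrower window or a shorter list moves these values by its construction. When N2A peaks within 100 nt of a cortex peak counted as shared, the share was 57.7%. The alternative that kept peaks on the strand of the promoter table was chosen after seeing the data. No paired analysis was possible because each group has 1 list and no value per sample. For the same reason no sample could be left out, and the unknown depth limits every statement on genes without a peak.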
